A study of Mus musculus with 12 samples.

Results

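Exon usage in undifferentiated mouse embryonic stem (ES) cells was compared with that of their progeny on a path to cardiomyocytes. Exon arrays, which hold several probe sets for every gene, had profiled 6 samples, 2 in each of 3 stages. The stages were ES cells left undifferentiated (day 0), embryonic bodies sampled on day 7 and cardiac bodies sampled on day 14. Serum-supplemented DMEM is the medium the labels give for all 3, and they name no strain, genotype, sorting step or further agent. They also do not say whether the 2 samples of a stage were separate cultures, so the p-values may reflect technical spread only. The relative signal of a probe set was its log2 signal less the median over the gene's probe sets in that sample, and the contrast set the ES samples against the 4 later ones. A gene entered if it had at least 4 probe sets and its median reached that of all values in every stage, and a probe set of such a gene entered if its mean reached the 25th percentile in the ES or the later samples. This left 93293 of 229581 probe sets, in 6258 of the 14519 genes with at least 4 probe sets, and 3287 probe sets of these genes were left out as low.

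One gene can give several transcripts, through starts at different promoters, exons that are included or skipped, and alternative ends. ES cells and differentiated cells are known to use different forms of some transcripts, and sarcomere genes such as tropomyosins switch between mutually exclusive exons as muscle forms. An exon array sees such forms only as probe sets that do not follow the rest of their gene, and the positions of the probe sets within the genes are not used here.

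The stages had the markers of their labels at the gene level. All 12 measured ES cell markers, among them Pou5f1 and Nanog, had higher means in ES cells, and 9 of them passed limma with Benjamini-Hochberg adjustment, where 8.59% of all rows passed, 3.77% in that direction. Their mean log2 signal was 10.9 to 11.0 in ES cells, 7.75 to 7.99 at day 7 and 10.0 to 10.4 at day 14, so day 14 lay closer to ES cells than day 7 did. All 10 measured cardiomyocyte markers passed as lower in ES cells, against 4.82% of all rows, with a mean of 5.51 to 5.53 in ES cells and 11.0 to 11.3 at day 14. Markers of endoderm (7 of 7 lower in ES cells, 4 past the test), of endothelium (5 of 6 lower, 2 past the test) and of fibroblasts and feeder cells (8 of 9 lower, 1 past the test, while Thy1 passed as higher) also differed. Of the epithelial markers 3 of 5 were lower and all 3 passed, while of the blood markers 4 of 5 were higher and 2 passed, and no nerve marker passed. The epithelial mean was 8.34 to 8.56 in ES cells, 10.6 at day 7 and 8.16 to 8.32 at day 14, so it was high at day 7 alone. The endothelial mean was 5.80 to 5.86, 7.79 to 8.88 and 6.09 to 6.37, and that of fibroblasts and feeder cells 5.70 to 5.78, 6.48 to 8.16 and 6.13 to 6.21. Both were thus highest at day 7 too. In such mixed cultures fewer cells of a type and less RNA per cell cannot be told apart, and the part of these cell types in the differences below was not tested.

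No probe set passed the test of exon usage. In limma's moderated test over all 93293 probe sets the smallest adjusted p was 0.159, so 0 were called (0% of those tested), and none was called against day 7 or day 14 alone or between the later stages. At an unadjusted p under 0.05 there were 7267 probe sets (7.79%), of which 3381 (3.62%) were higher and 3886 (4.17%) lower in ES cells. The samples of a stage differed by 0.282 (ES cells), 0.171 (day 7) and 0.263 (day 14) in relative signal for the median probe set, and by over 1 for 5.45%, 1.26% and 4.99% of probe sets. The results that follow are therefore a description of values, given as not past this test. A further limma fit, added after this outcome was seen, used a robust estimate of the spread that follows the signal level and left out 298 probe sets with no spread. It called 32 of 92995 probe sets (0.0344%) in 20 genes, 21 higher (0.0226%) and 11 lower (0.0118%) in ES cells. A probe set that is itself its gene's median in a sample has a relative signal of 0 there by construction. Its spread is then understated, and its SE and p can be too small in every fit of relative signals. limma's diffSplice, also added afterwards, called 276 (0.296%), with 119 higher and 157 lower. On simulated data diffSplice called more unaltered probe sets than it called here in all. The simulation drew the noise of each probe set on its own, from the spread of its log2 signal. Shifts shared by a gene's probe sets, which the relative signal removes, thus became noise there, and its false calls need not hold for the data. The diffSplice calls were added after the outcome was seen and are not taken as findings.

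A probe set is called separated here when its relative signal in the ES samples differed from the mean of the later stages by 1 or more on the log2 scale and the 2 ES samples did not overlap the 4 later ones. This applied to 681 probe sets (0.73%), 320 higher in ES cells (0.343%) and 361 lower (0.387%), in 457 genes. This count was also added after the planned test had called none. On simulated data the same rule marked more unaltered probe sets than it marked here, but with the noise described above, so that count need not hold for the data. The separated probe sets were chosen by their values and passed no planned test, so they are a description and no evidence of altered exon usage. Without a limit of size 14906 probe sets (16% of those tested) did not overlap, and 996 (1.07%) differed by 1 or more with or without overlap. The count was 866 higher and 573 lower without ES replicate 1, 866 and 2488 without ES replicate 2, and 600 lower without day 14 replicate 1. Just inside the limit stood a probe set of Mapk12 at 1.00001, and just outside it one of Zfp746 at -0.999695. Most of the 457 genes, 345, held 1 separated probe set, 72 held 2 and 40 held at least 3. Genes with at least 3 had a median of 22 tested probe sets, against 13 over all tested genes.

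Separated probe sets of both directions lay more often than all tested ones in genes that differed the opposite way, and the lower ones also in genes that differed the same way. Of the 320 higher, 48.8% lay in genes whose own median was lower in ES cells by 1 or more, where 3.86% of all tested probe sets lay. In 62.2% of the 320 the log2 signal of the probe set itself differed by less than 1. Of the 361 lower, 18.8% lay in genes whose median was higher in ES cells by 1 or more, where 4.04% of all lay, and the signal itself was lower by 1 or more in 200. A further 12.2% of the lower lay in genes whose median was lower by 1 or more, against 3.86% of all. Of the higher, 2.19% lay in genes whose median was higher by 1 or more. Genes whose median differed by less than 1 held 49.1% of the higher, 69.0% of the lower and 92.1% of all tested probe sets. The relative signal of a probe set moves with the gene's median by its construction, so a probe set that stays level in a gene that differs is counted as separated. Genes whose median differed by less than 1 at both later stages are called steady here: they held 78068 of the tested probe sets, of which 126 were separated as higher and 203 as lower, in 252 of 5194 genes.

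**Figure D1:**
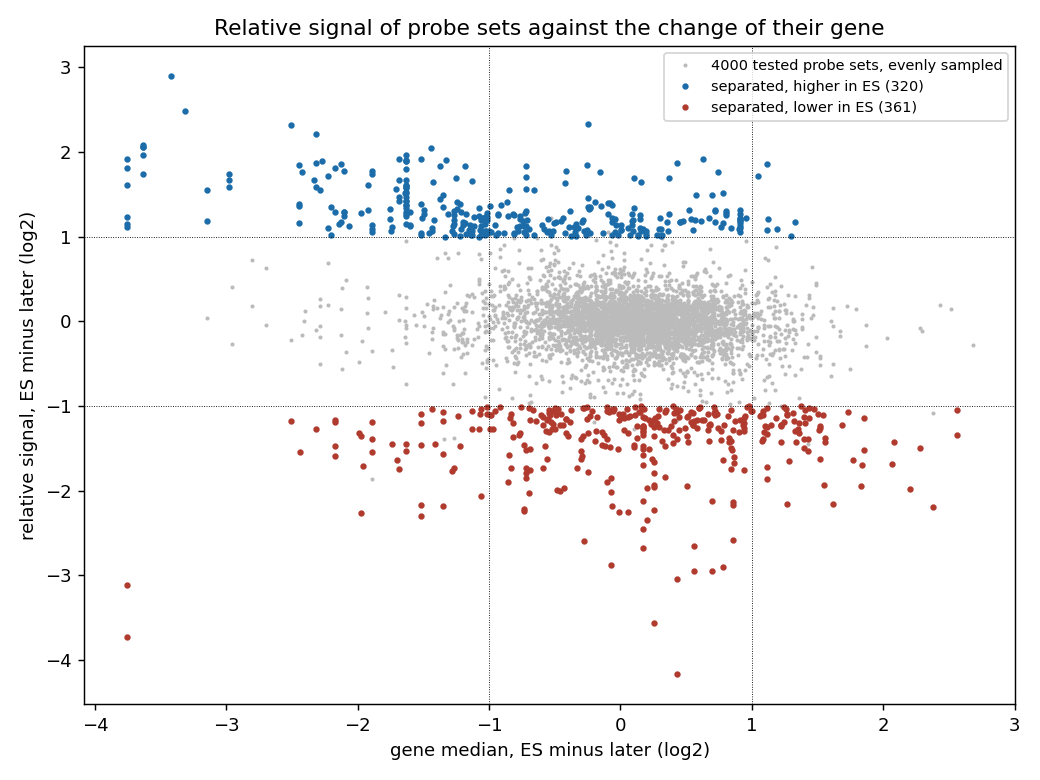
Relative signal of probe sets, ES minus later (vertical axis, log2), against the same difference of the gene's median (horizontal axis, log2). Grey points are an even sample of the tested probe sets, blue points the 320 separated as higher and red points the 361 separated as lower in ES cells. Blue points gather on the left, where genes were lower in ES cells, and the dotted lines mark a difference of 1.

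Among steady genes the probe sets with the smallest p were mainly lower in ES cells. Frmd4a encodes a FERM-domain scaffold linked to epithelial polarity. The relative signal of its probe set 5563515 was -5.11 and -4.79 in the ES samples, -0.75 and -0.71 at day 7 and -2.27 and -1.85 at day 14. The ES samples were far below all later ones, and day 7 lay highest. Its log2 signal in ES cells, 2.93 and 3.77, was under the limit for probe sets, 5.37, so it entered through the later samples alone and was not tested when both sides had to reach the limit. With that limit the difference was -3.56 ± 0.18 (SE, n = 2 against 4), with an adjusted p of 0.159 by limma and 0.0358 in the added robust fit. The median of the gene was 8.30 in ES cells, 8.19 at day 7 and 7.91 at day 14, and the gene-level difference of -0.34 ± 0.21 did not pass (limma adjusted p = 0.397). In all, 7 of the 23 tested probe sets of Frmd4a were separated, every one lower in ES cells, with differences from -3.56 to -1.16. Their mean log2 signal was 4.78 and 4.93 in ES cells, 6.87 and 8.04 at day 7 and 5.57 and 6.10 at day 14. Taken singly, the 7 had ES means from 3.35 to 6.40. Those under the limit of 5.37 entered through the later samples alone and so could only be lower in signal in ES cells. The shared direction of the 7 is therefore not a further result. The other 16 had a median difference of 0.04 in log2 signal. Single probe sets among these 16 differed by -1.02 to 0.94.

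RefSeq gives Frmd4a 4 start windows (300 bases around a transcript start) on the + strand of chromosome 2 of GRCm38.p6, which stand 542071 bases apart from first to last. The first, at chr2:4017433-4017732, and the last, at chr2:4559504-4559803, are shown because the gene's probe sets did not move as one and the starts differ in base composition. Capitals mark CG, and which start a probe set belongs to is not known here.
Frmd4a first start: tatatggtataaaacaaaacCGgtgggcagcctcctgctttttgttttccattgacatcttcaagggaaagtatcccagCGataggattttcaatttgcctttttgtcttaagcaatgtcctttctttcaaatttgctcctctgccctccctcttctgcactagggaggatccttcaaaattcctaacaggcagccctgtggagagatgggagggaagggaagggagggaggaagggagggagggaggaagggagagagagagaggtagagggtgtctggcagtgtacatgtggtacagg
Frmd4a last start: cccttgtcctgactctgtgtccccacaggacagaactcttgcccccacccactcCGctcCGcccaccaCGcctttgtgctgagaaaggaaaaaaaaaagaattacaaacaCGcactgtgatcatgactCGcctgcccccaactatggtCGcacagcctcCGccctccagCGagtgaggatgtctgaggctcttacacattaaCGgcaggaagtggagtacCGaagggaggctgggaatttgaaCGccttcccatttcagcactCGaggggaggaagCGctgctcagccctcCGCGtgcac
The first window holds 2 CG and the letters TATAAA, and the last holds 15 CG and no TATAAA on either strand. Over 32851 RefSeq windows of this length the median was 7 CG and 13.62% held TATAAA on either strand. These letters describe the windows only.

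Gnas encodes the stimulatory G protein alpha subunit, from an imprinted locus with several promoters that give transcripts sharing downstream exons. Its probe set 4681298 had a relative signal of 0.91 and 1.11 in ES cells, 3.27 and 3.95 at day 7 and 3.44 and 3.17 at day 14. The ES samples lay below all 4 later ones, by -2.45 ± 0.23, with an adjusted p of 0.25 by limma and 0.0479 in the added robust fit. Of 38 tested probe sets 13 were separated, all lower in ES cells. The mean log2 signal of these 13 was 11.4 and 11.6 in ES cells, 13.1 and 12.9 at day 7 and 12.7 and 12.7 at day 14. They were among the brightest of the gene, while the other 25 averaged between 7.40 and 8.07 in the 6 samples and had a median difference of 0.00. The gene-level row differed by -0.43 ± 0.16 and did not pass (limma adjusted p = 0.181). A gene median set by dimmer probe sets thus differed little while the bright ones were lower in ES cells.

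RefSeq gives Gnas 4 start windows on the + strand of chromosome 2, a pair of which overlap. The first, at chr2:174284070-174284369, and the last, at chr2:174329756-174330055, are shown for the same reason as those of Frmd4a, with CG in capitals.
Gnas first start: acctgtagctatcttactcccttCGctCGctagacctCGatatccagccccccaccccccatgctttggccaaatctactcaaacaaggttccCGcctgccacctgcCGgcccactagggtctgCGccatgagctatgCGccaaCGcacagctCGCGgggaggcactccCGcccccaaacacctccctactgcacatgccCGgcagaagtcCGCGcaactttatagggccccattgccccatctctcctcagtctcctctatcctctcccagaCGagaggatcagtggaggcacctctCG
Gnas last start: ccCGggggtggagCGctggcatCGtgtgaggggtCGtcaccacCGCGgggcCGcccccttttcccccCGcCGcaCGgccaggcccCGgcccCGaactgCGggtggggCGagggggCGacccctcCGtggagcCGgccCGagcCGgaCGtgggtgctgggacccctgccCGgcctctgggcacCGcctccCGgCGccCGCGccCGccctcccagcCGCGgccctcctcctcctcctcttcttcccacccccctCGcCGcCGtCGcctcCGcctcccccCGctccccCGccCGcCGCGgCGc
They hold 16 and 40 CG, and the first holds TATAAA on either strand while the last holds none. Across the tested genes with a window, 20.6% had at least 2 windows, and this share was 29.6% in genes with 1 or 2 separated probe sets and 24.2% (8 of 33) in genes with at least 3. Genes with more probe sets have more chances to hold a separated one, and that difference was not adjusted for.

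Srpk2, Axl and Gramd1b were further steady genes with a probe set lower in ES cells. Srpk2 is a kinase of SR splicing factors. Its probe set 5170316 had a log2 signal of 6.52 and 6.58 in ES cells, 9.02 and 9.14 at day 7 and 10.2 and 9.66 at day 14, and a relative difference of -2.88 ± 0.24. The gene-level row of Srpk2 differed by 0.06 ± 0.15 (limma adjusted p = 0.868). Axl is the receptor tyrosine kinase of Gas6. Its probe set 4996611 had a relative signal of -0.01 and 0.59 in ES cells and 2.18 to 2.69 in the later samples, with a difference of -2.22 ± 0.23. Axl itself was lower in ES cells at the gene level, by -0.96 ± 0.15, which passed limma (adjusted p = 0.0217). Gramd1b, a sterol transfer protein of the endoplasmic reticulum, had a probe set at -3.81 and -3.32 in ES cells, 0.05 and -0.40 at day 7 and -1.11 and -1.19 at day 14. The groups of Gramd1b did not overlap, and day 14 lay between the others. This probe set was at log2 signals of 4.74 and 5.56 in ES cells, with a mean under the limit for probe sets, and entered through the later samples alone. Srpk2 (0.0327), Axl (0.0479) and Gramd1b (0.0479) had these adjusted p in the added robust fit, and none passed the planned test.

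Acer2, a Golgi ceramidase, had named probe sets in both directions. Its probe set 4727909 was at -0.66 and -1.14 in ES cells and 0.52 to 1.32 in the later samples, a difference of -1.78 ± 0.19. Its probe set 4602630 was at 0.04 and 0.13 in ES cells and between -1.81 and -0.88 later, a difference of 1.46 ± 0.21. The first passed the added robust fit (adjusted p = 0.0479) and the second did not (adjusted p = 0.208). The gene has separate gene-level rows that also went opposite ways, 1 of which passed limma as higher in ES cells by 1.03 ± 0.15 (adjusted p = 0.0164) while the other, at -0.34, did not.

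The remaining steady genes with probe sets lower in ES cells passed neither the planned nor the added robust fit. The probe set of Mycbp2, a ubiquitin ligase, was at -2.78 and -2.98 in ES cells and between -1.10 and -0.33 later. That of Smarcal1, a DNA annealing helicase, was at -5.23 and -4.38 against -2.67 to -2.36. Both were under the limit for probe sets in ES cells, with log2 signals of 5.20 and 5.12 for Mycbp2 and of 3.20 and 4.09 for Smarcal1, as was Cercam with 4.31 and 4.83. Ptprs, a receptor tyrosine phosphatase, and Dync1h1, the heavy chain of cytoplasmic dynein, had probe sets at log2 signals of 7.02 to 8.26 in ES cells and 9.01 to 10.2 later. Differences of -1.50 ± 0.16 and -1.59 ± 0.15 followed for Ptprs and Dync1h1, and Ptprs itself was lower in ES cells at the gene level, at -0.68 ± 0.15 (limma adjusted p = 0.0489). Arid5b, a DNA-binding protein, and Cercam had differences of -1.47 ± 0.15 and -1.50 ± 0.17, and in Arid5b day 14 lay between ES cells and day 7.

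Fewer probe sets of steady genes stood higher in ES cells. Tacc2 encodes a centrosomal coiled-coil protein, and its probe set 4845684 was at 1.55 and 1.25 in ES cells, -0.82 and -0.60 at day 7 and 0.00 and -0.03 at day 14. Its difference was 1.76 ± 0.15, and of the steady genes' higher probe sets it was the 1 that passed the added robust fit (adjusted p = 0.0337, against 0.25 in the planned test). This probe set was at or near its gene's median at day 14, so its p can be too small. The gene-level row of Tacc2 differed by -0.15 ± 0.18. Prpf8 is a core protein of the spliceosome. The log2 signal of its probe set 4382446 was 9.14 and 9.63 in ES cells, 6.95 and 6.78 at day 7 and 7.47 and 8.12 at day 14, against a gene median of 11.7, 11.2 and 11.4. This probe set was dim beside its gene in every sample, and less so in ES cells, by 1.69 ± 0.19 (limma adjusted p = 0.277). Ikbkb, a kinase of the NF-kappaB pathway, had a probe set at -1.08 and -1.18 in ES cells and -2.70 to -2.27 later.

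Other higher probe sets of steady genes lay in Tuba1c (alpha-tubulin), Zfp219 (a zinc finger protein), Piga (of GPI anchor synthesis), Tcf7 (a transcription factor of Wnt signalling), Agtpbp1 (a tubulin-trimming enzyme), Man2a2 (a Golgi mannosidase), Pnkd and Serinc3. Their differences ran from 1.02 in Tcf7 to 1.85 in Tuba1c, and none passed the planned or the added robust fit. In Serinc3 and Man2a2 the log2 signals of the groups overlapped although the relative signals did not. Serinc3 was at 6.06 and 5.78 in ES cells against 4.65 to 6.18 later, and Man2a2 at 7.30 and 7.23 against 6.77 to 7.41. Alpha-tubulin genes are near-identical, so the signal of Tuba1c may include its paralogs. Centred on the gene's mean, the difference of Tuba1c was 1.21. The probe set of Piga was near the low end of the scale, at 5.75 and 6.11 in ES cells and 3.63 to 4.35 later. In the later samples it was under the limit for probe sets, so it entered through the ES samples alone. At the gene level Piga passed limma as higher in ES cells, by 1.02 ± 0.19 (adjusted p = 0.0315), and Man2a2 as lower, at -0.89 ± 0.15 (adjusted p = 0.0261), although their exon-level medians were steady. In Zfp219 day 14 lay near ES cells, at -0.98 and -0.88 against -0.42 and -0.38, while day 7 was at -2.46 and -2.17.

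**Figure D2:**
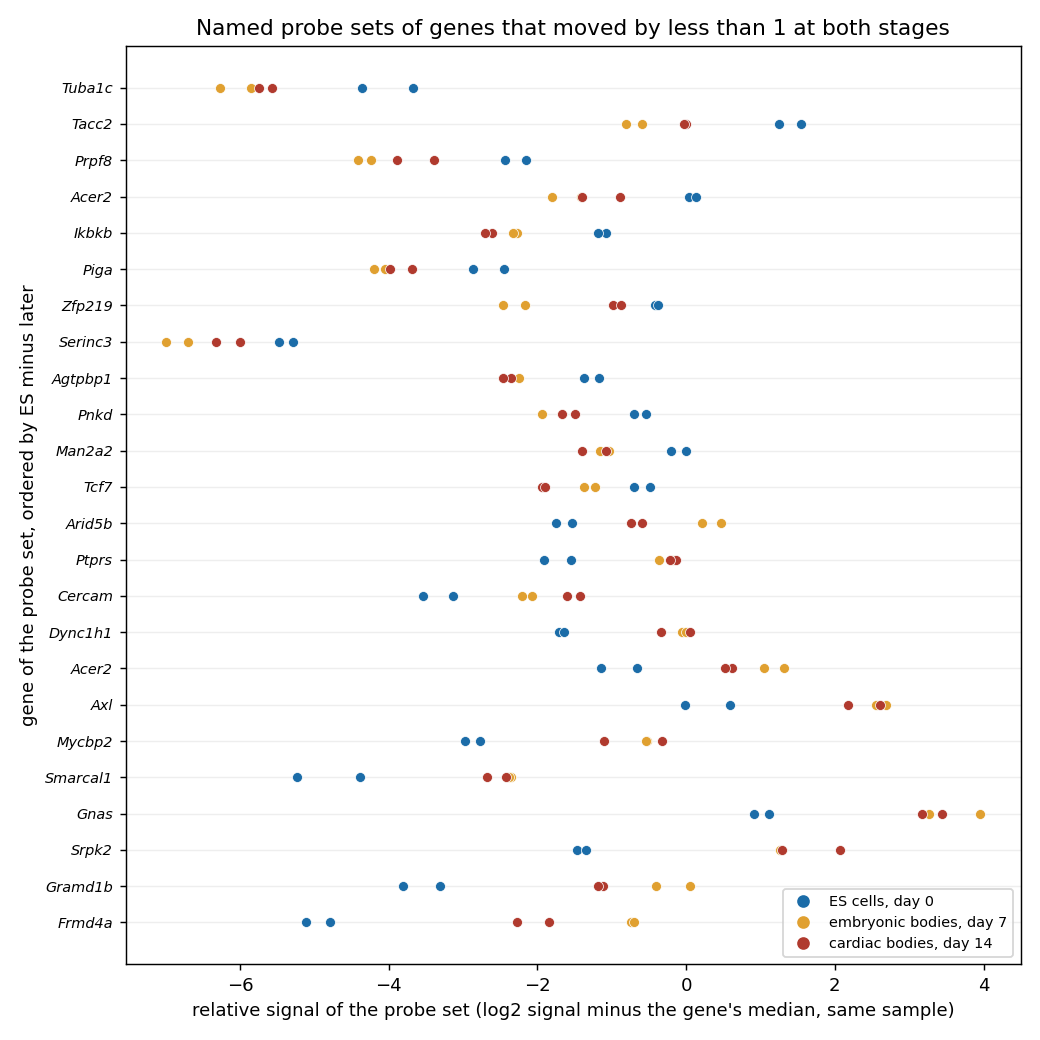
Relative signal (horizontal axis, log2) of the named probe sets of steady genes in each of the 6 samples, 1 row per probe set, ordered by the difference of ES cells from later stages. Blue points are ES cells, yellow points day 7 and red points day 14; in every row both blue points lie on 1 side of all others, which the choice of rows required, with Frmd4a at the bottom and Tuba1c at the top.

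In several genes that were themselves lower in ES cells, a block of probe sets stayed level. Utrn encodes utrophin, the paralog of dystrophin, whose gene also has internal promoters that give shorter proteins. Of its 74 tested probe sets 22 were separated as higher and 1 as lower. The mean log2 signal of the 22 was 10.1 and 9.94 in ES cells, 10.1 and 10.1 at day 7 and 9.98 and 10.2 at day 14, so these probe sets did not separate the stages. The 51 that were not separated averaged 6.69 and 6.76 in ES cells, 8.91 and 9.01 at day 7 and 7.68 and 8.16 at day 14, with a median difference of -1.79. At the gene level Utrn differed by -1.33 ± 0.17, which passed limma (adjusted p = 0.0117). The probe set of Utrn with the smallest p, 4396533, had a relative difference of 1.97 ± 0.12, and 8 of its probe sets passed the added robust fit, with adjusted p from 0.0304 to 0.0479. Probe sets of 1 gene share their RNA samples and the gene median, so their number is not a number of independent measurements.

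Ddx58 encodes the RNA sensor RIG-I and went the other way. Of its 20 tested probe sets 10 were separated, all higher in ES cells by 1.06 to 1.32 in relative signal. Their mean log2 signal was 10.8 and 11.2 in ES cells, 7.93 and 8.41 at day 7 and 9.84 and 9.39 at day 14. The other 10 averaged 7.01 and 7.74 in ES cells and between 6.68 and 7.43 later. Single probe sets among these other 10 differed by -0.15 to 2.12 in log2 signal, with a median of 0.33, so the gene did not split cleanly. The signal of the separated probe sets was higher in ES cells by 1.96 to 2.22, and the gene-level row was higher by 1.59 ± 0.23 and passed limma (adjusted p = 0.0175). The median of this gene stands between the brighter and the dimmer probe sets, and no probe set of Ddx58 passed the planned or the added robust fit.

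Tropomyosin 1, Tpm1, whose alternative exons differ between muscle and other cells, had 8 of its 10 tested probe sets separated. Probe set 4599174 had a log2 signal of 4.50 and 4.97 in ES cells, 11.0 and 11.5 at day 7 and 12.2 and 11.8 at day 14. It was under the limit for probe sets in ES cells and so entered through the later samples alone. Its relative difference was -3.11 ± 0.18, with an adjusted p of 0.159 by limma and 0.0337 in the added robust fit. Probe set 4866752 was at 7.94 and 8.15 in ES cells, 11.1 and 11.0 at day 7 and 8.78 and 8.67 at day 14, so it was high at day 7 alone. The pooled difference of 1.92 ± 0.14 for that probe set joined 0.43 against day 7 and 3.41 against day 14. The gene itself differed by -2.86 ± 0.17 at the gene level (limma adjusted p = 0.0028).

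**Figure D3:**
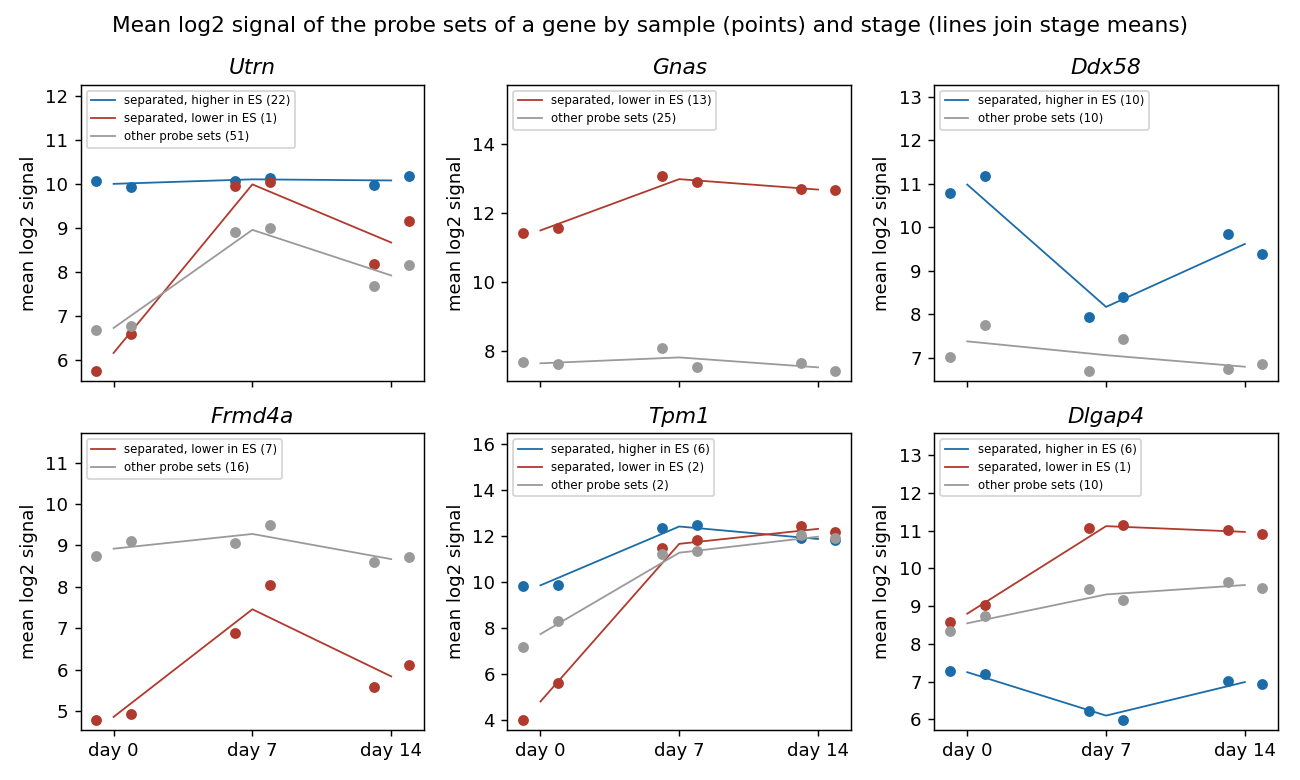
Mean log2 signal (vertical axis) of the separated and the other probe sets of 6 genes, by sample (points) and stage (lines join stage means), with the number of probe sets in brackets. The 22 blue probe sets of Utrn stay near 10 in all samples while the 51 grey ones are lowest in ES cells, and the 13 red ones of Gnas are lower in ES cells while the 25 grey ones stay between 7.40 and 8.07. The separated probe sets were chosen by these same values.

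The other genes with at least 5 separated probe sets were Frmd4b (8 of 24), Zmiz1 (8 of 29), Dlgap4 (7 of 17), Dlk1 (6 of 11), Myl4 (5 of 9) and Slc22a17 (5 of 19). Dlgap4, a scaffold of postsynaptic densities, was the steady gene among these 6. Its 6 higher probe sets averaged 7.29 and 7.21 in ES cells, 6.21 and 5.98 at day 7 and 7.02 and 6.94 at day 14, and its 1 lower probe set 8.57 and 9.02, 11.1 and 11.2, and 11.0 and 10.9. Day 14 was thus near ES cells for the first set of probe sets and near day 7 for the other. In Zmiz1, a transcriptional coactivator, 5 lower probe sets averaged 7.02 and 8.24 in ES cells and 10.3 to 11.4 later, and 2 of its probe sets passed the added robust fit. The samples of a stage differed by over 1 there both in ES cells and at day 7. In Slc22a17, a lipocalin receptor, the 4 higher probe sets averaged 8.12 to 8.47 in all 6 samples, while the 14 not separated had a median difference of -1.66.

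**Figure D4:**
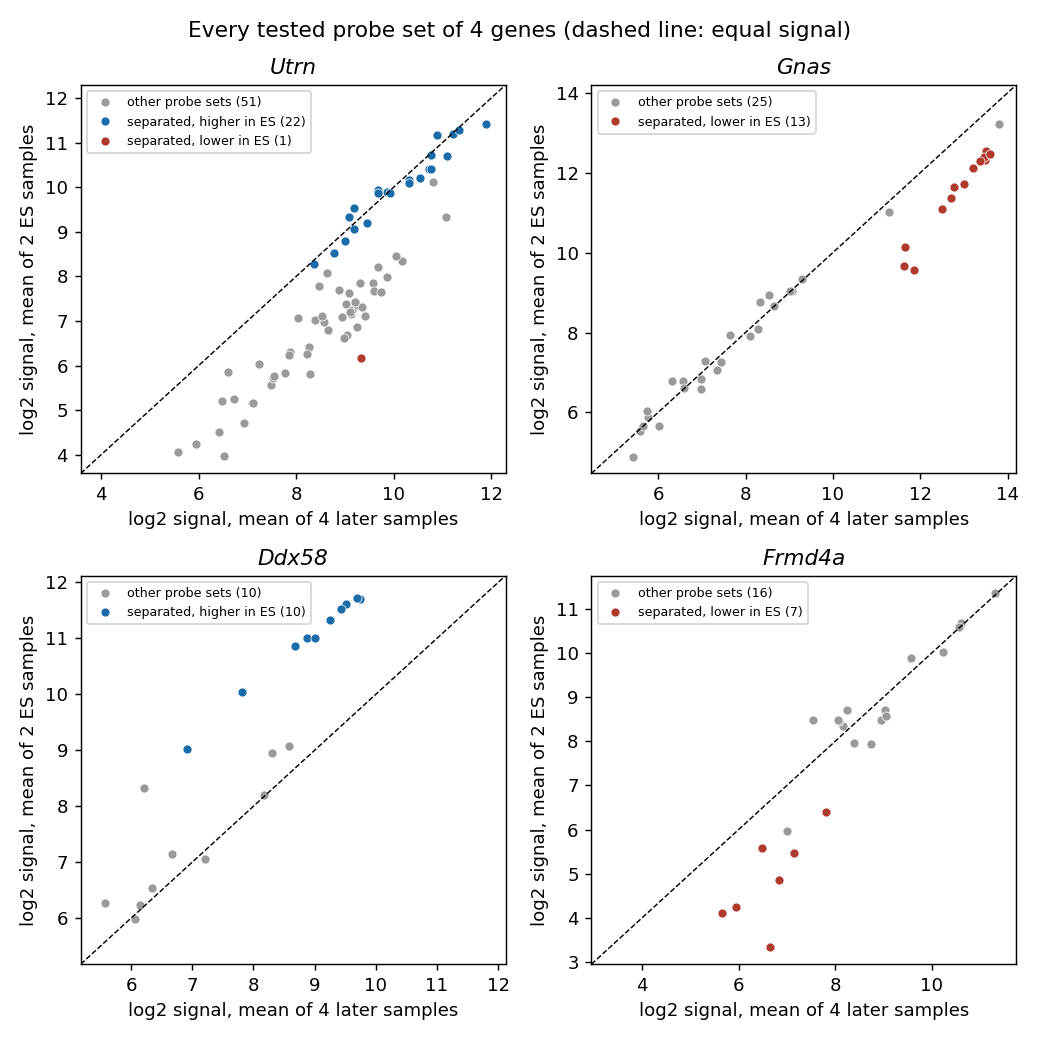
Log2 signal of every tested probe set of Utrn, Gnas, Ddx58 and Frmd4a, as the mean of the 2 ES samples (vertical axis) against the mean of the 4 later samples (horizontal axis). The dashed line marks equal signal: the 22 blue probe sets of Utrn and the 25 grey ones of Gnas lie along it, the 10 blue ones of Ddx58 above it and the 7 red ones of Frmd4a below it.

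Several of the highest ranked probe sets likewise stayed level or moved less than their gene. Akt1, the serine/threonine kinase, had a probe set at 8.24 and 8.45 in ES cells and 8.42 to 8.74 later, and Phf2, a histone demethylase, 1 at 7.63 and 7.91 against 7.42 to 8.16. In both the groups' signals overlapped although the relative signals did not, and both genes passed limma as lower in ES cells at the gene level (Akt1 at -1.59, adjusted p = 0.00744, and Phf2 at -1.20, adjusted p = 0.0239). The probe sets of Shisa4, Myl4 (a myosin light chain of embryonic heart), Parm1, Ssbp2 (a partner of LIM-domain complexes) and Rtl8c differed in signal by -1.67 to -0.66 from the later stages pooled, and their genes' medians by -3.64 to -2.31. The Myl4 probe set was at a log2 signal of 9.85 and 9.62 in ES cells, 9.26 and 9.67 at day 7 and 13.5 and 13.2 at day 14, so its signal was low at day 7 as well. That of Parm1 was at 9.56 and 9.92, 9.89 and 9.89, and 11.1 and 10.7, and also overlapped at day 7. The 5 probe sets had adjusted p from 0.0327 to 0.0479 in the added robust fit. The relative signal of Shisa4 was 0.00 and 0.00 at day 7 and 0.04 and 0.00 at day 14. That of Myl4 was -0.01 and 0.00 at day 14, and that of Parm1 0.10 and 0.00 at day 7. These probe sets were at or near their gene's median there, so their p can be too small. In diffSplice the adjusted p was 0.00568 for Parm1, 0.58 for Shisa4, 0.469 for Myl4, 0.165 for Rtl8c and 0.14 for Ssbp2. As diffSplice calls are not taken as findings, these values do not rank the 5. Centred on the gene's mean, the difference was 0.79 in place of 1.67 for Shisa4 and 1.06 in place of 1.97 for Myl4. The added robust fit also called 1 probe set each of Gyg, the glycogenin that primes glycogen, at 2.90, and of Dlk1, an imprinted transmembrane protein, at 1.81.

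Of the lower probe sets outside steady genes, that of Gab1, a docking protein of receptor tyrosine kinases, ranked high. The log2 signal of Gab1 probe set 5283040 was 9.04 and 9.41 in ES cells, 11.7 and 11.8 at day 7 and 11.0 and 10.8 at day 14. It was high at day 7, where the median of Gab1 was at its lowest, 9.83, against 11.0 in both other stages. The relative difference was -2.65 ± 0.15, with an adjusted p of 0.159 by limma and 0.0204 in the added robust fit. Slc25a12, the mitochondrial aspartate and glutamate carrier, had a probe set at -1.95 and -1.60 in relative signal in ES cells and -0.05 to 0.26 later, and passed the added robust fit too (adjusted p = 0.0479). Its log2 signal, 7.78 and 8.61 in ES cells, overlapped day 7, at 8.60 and 8.61, and was 10.7 and 10.6 at day 14. The median of Slc25a12 was 9.97 in ES cells, 8.38 at day 7 and 10.6 at day 14. Dohh, which makes the hypusine residue of eIF5A, had a probe set at a log2 signal of 6.09 and 6.52 in ES cells and 5.77 to 6.78 later, which overlapped, while the gene's median was higher in ES cells by 1.51.

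Both later stages need not share a difference from ES cells. Of the 681 separated probe sets 378 differed from ES cells by 1 or more at day 7 and at day 14 alike. The 681 were chosen by a difference of 1 or more from the mean of these stages, so that count is in part set by the choice. It was not made over all tested probe sets. The later stages themselves differed by 1 or more in 105 of the 681, and in 886 of all 93293. Day 7 and day 14 are compared here with the same ES samples, so their differences from ES cells are not independent.

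Named lists of genes were set beside these values. In genes reported to be spliced differently in ES cells 25 of 32 members were tested, and 2 of their 480 probe sets were separated as higher and 5 as lower, 1.46% against 0.73% of all. None passed the test. The 5 lower ones lay in Foxp1 and Tbx3 and the 2 higher ones in Mbd2, which were named after their values were seen. Foxp1 is a forkhead factor with an ES cell form of its DNA-binding exons. Its probe set 4878878 had a relative signal of -3.42 and -3.71 in ES cells, -1.62 and -1.96 at day 7 and -1.87 and -2.97 at day 14, and the gene-level row differed by 0.12 ± 0.23. Its other separated probe set, 5396835, was at -4.84 and -4.88 against -4.52 to -2.62, so the groups of both were apart by a small gap at 1 day 14 sample. Probe set 5396835 had log2 signals of 4.38 and 4.96 in ES cells, under the limit for probe sets, and entered through the later samples alone. Mbd2 reads methylated DNA, and its 2 probe sets differed by 1.26 ± 0.47 and 1.04 ± 0.31. In both the log2 signals of the groups overlapped although the relative signals did not. Probe set 5237551 was at 9.63 and 9.15 in ES cells against 9.19 to 9.40 later. Probe set 4890076 was at 5.39 in ES replicate 1, under the 5.92 of day 7 replicate 1. The median of Mbd2 was 7.80 in ES cells, 8.88 at day 7 and 8.58 at day 14. The probe sets of Tbx3, a T-box factor, differed by -1.13 to -1.49, and the 2 samples of day 7 lay far apart in probe set 4675059, at -1.26 and 0.39. The log2 signals of the groups overlapped in every separated probe set of Tbx3. Its gene median was 10.3 in ES cells, 8.27 at day 7 and 9.47 at day 14.

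Genes known as targets of the MBNL and PTB splicing regulators had 10 probe sets higher and 6 lower of 741 (2.16%), and genes of muscle isoform switches 10 and 4 of 293 (4.78%). Cytoskeleton and adhesion genes had 12 and 9 of 1395 (1.51%). Tpm1 alone gave 8 separated probe sets to each of these 3 lists, and without it the shares were 1.09%, 2.12% and 0.939%, a step added after its values were seen. Septin8 had 2 probe sets whose log2 signal stayed between 7.01 and 7.58 and between 9.31 and 9.68 in all samples, while its gene median was 8.14 in ES cells and 9.54 at day 7. Probe set 4740804 of Atp2a2, the calcium pump of the sarcoplasmic reticulum, was at 8.08 and 8.23 in ES cells, 7.87 and 8.01 at day 7 and 12.2 and 11.5 at day 14. It stood apart at day 14 and not in ES cells. Probe set 5282948 of Camk2g, a calmodulin-dependent kinase, was likewise at 5.60 to 6.25 until day 7 and 9.27 and 8.32 at day 14. Of the adhesion genes, Sptbn1, a beta-spectrin, had 3 probe sets lower in ES cells, with differences of -1.85 to -1.72, at log2 signals of 2.61 to 5.57 in ES cells against 5.18 to 7.75 later. All 3 had ES means under the limit for probe sets and entered through the later samples alone, and they count in the share of that list.

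Chromatin genes were near the share of all probe sets, with 2 higher and 4 lower of 874 (0.686%), and 10.1% of them had an unadjusted p under 0.05, against 7.79% of all. Splicing factors had 3 and 1 of 758 (0.528%), and genes of epithelial and mesenchymal splicing 1 and 2 of 606 (0.495%). The pluripotency list had 4 lower of 237 (1.69%), 3 in Tbx3 and 1 in Klf2. The Klf2 probe set had a log2 signal of 10.7 and 10.8 in ES cells, 11.2 and 11.4 at day 7 and 11.2 and 10.8 at day 14, while Klf2, a transcription factor of the naive pluripotent state, was higher in ES cells at the gene level by 1.60 ± 0.16 and passed limma (adjusted p = 0.00647). The Klf2 probe set thus stayed level in a gene that was higher in ES cells. In Eed, a subunit of Polycomb repressive complex 2, and Mtf2, a partner of that complex, 1 probe set each differed by -1.04 ± 0.16 and -1.09 ± 0.18. The log2 signal of the Eed probe set itself was higher in ES cells, at 9.09 and 9.02 against 8.29 to 8.91, in a gene that passed limma as higher there by 1.35 ± 0.24 (adjusted p = 0.0283), and that of the Mtf2 probe set overlapped between the groups. The median size of the difference was 0.145 to 0.194 over the lists, and 0.16 over all tested probe sets.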

How the data were processed

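Per the labels' protocols, RNA was extracted with TRIzol, depleted of ribosomal RNA, amplified and labelled with biotin. The deposited values are log2 signals. The submitters' processing notes name RMA and Affymetrix Power Tools, with no version given in the sources used here. The labels name core probe sets defined on mm9. The files give no detection calls, and precision is limited by how many arrays there are. Sample medians were 7.11 to 7.42. Symbols came from the platform annotation, updated through RefSeq (GRCm38.p6): 209279 probe sets had 1 symbol, 4446 several and 15856 none. Several-symbol probe sets were left out.

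Relative signals were fitted in R 4.3.3 by limma 3.58.1, using lmFit and eBayes (3 stages, day 0 minus the mean of days 7 and 14, Benjamini-Hochberg over all tested, 2-sided), and called where the adjusted p was below 0.05 and the difference at least 1 in size. The gene-level table was fitted likewise. Gene and probe set limits were 7.26 and 5.37 on the log2 scale, the 50th and 25th percentiles. The rule for names took 12 genes a direction and, since none was called, went on to separated probe sets by smallest unadjusted p, 1 per gene. The values of 1 named gene are not reported here. After the planned test had called none, the following were added: the count of separated probe sets, the same naming within steady genes (10 more higher and 5 more lower), genes with at least 5 separated probe sets, the robust trend fit, a fit without the 298 probe sets that have no spread, and diffSplice. The tests were run on simulated data. Members and lists were chosen with earlier results of these data known. Replicate numbers did not pair the samples across all 3 stages, though replicate differences of ES cells and day 14 correlated at 0.565.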

Additional observations from a re-analysis of the deposited data

How the results depend on the processing

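The planned test called 0 probe sets, and this held when any 1 sample was left out (0 to 0 higher and 0 to 0 lower), with limma's trend alone, with later stages pooled in a 2-group fit, with other filters on probe sets, after a further quantile normalization and in steady genes alone. With the replicate block it was 0 as well; the differences between replicates correlated across probe sets at 0.565 for ES cells and day 14, but at -0.123 for ES cells and day 7 and -0.105 for day 7 and day 14, so the numbers do not pair the stages. Centring on the gene's mean gave 1 lower call (Tpm1 4599174, adjusted p = 0.0391), and without the filter on gene medians there were 148 higher and 105 lower calls. The added robust trend fit called 21 higher and 11 lower and diffSplice 119 and 157. Of the 39 named probe sets 18 passed the former and 27 the latter. On simulated data diffSplice made more false calls than it made calls here, though the simulated noise differed from that of the relative signals. Its calls are not taken as findings. With the probe set limit on both sides 32 of the 39 were tested; Frmd4a, Gramd1b, Tpm1 4599174, Mycbp2, Smarcal1, Cercam and Piga were not.

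The count of separated probe sets, 320 higher and 361 lower, moved by more than 1.5 times under several settings. It was 59 higher and 53 lower with the gene filter at the 75th percentile, 2803 and 2719 with none, and 126 and 203 in steady genes alone. Leaving out 1 sample gave 331 to 866 higher and 406 to 2488 lower; without ES replicate 1 it was 866 and 573, without ES replicate 2 it was 866 and 2488, and without day 14 replicate 1 the lower count was 600. The rule for separated probe sets uses no fitted spread, and with 1 sample left out fewer samples had to stay apart. What this added to the counts was not tested. In the test itself, a stage's lone sample is then assumed to vary like the other stages. No named probe set reversed its direction in the 721 values over 20 alternatives. They were chosen with both ES samples on 1 side of all later ones, so leaving out a sample could not reverse them. Some alternatives, such as the 2-group fit, change the p-value and not the difference. The lack of reversals is therefore no further support. With 2 samples a stage, 0 calls do not show that exon usage is alike, and dim probe sets near the low end of the scale may understate a difference.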
